A study of Rattus norvegicus with 9 samples.

Results

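The genes described here are 40 named genes of cell division: cyclins, their kinases and inhibitors, the machinery that copies DNA, and the proteins that build the spindle and part the chromosomes. The rule that selects them is a list of names, with no threshold on a measured value, and they were found by their symbol in the deposited gene table. Of the 40 genes, 38 were analysed, out of 32623 genes in the table; Ccnb2 and E2f1 were not analysed here. The values are RNA-seq levels in spinal cord of Wistar rats, all female, 8 weeks old and 200 to 230 g in weight, with 3 libraries in each of 3 groups. In Sham rats the lamina was opened and the cord was spared, in C_Spinal rats the cord was injured and distilled water was given by gavage, and in T_Spinal rats the cord was injured and gavage was with 3 mL a day of Modified Erxian Decoction (MED), a mixture of Chinese herbs. The labels name no genetic modification and do not state how long after injury the cord was taken, the level of the lesion or the stretch of cord dissected. Nor do they say whether libraries of a group are from different animals, so each p-value reflects the spread between libraries alone, which may be technical.

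A cell enters division when D-type cyclins activate Cdk4 and Cdk6, which release E2F transcription factors from the retinoblastoma proteins, and CDK inhibitors of the Cdkn families restrain these kinases. Targets of E2F then supply the MCM helicase, the sliding clamp and the nucleotides for DNA synthesis, and a later program driven by B-Myb, FoxM1 and the MuvB complex supplies Cdk1, the Aurora and Polo kinases and the spindle proteins. In the intact adult spinal cord few cells divide, chiefly oligodendrocyte precursors, while after injury microglia, infiltrating leukocytes, astrocytes, fibroblasts and ependymal cells are known to proliferate.

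Most cell division genes were higher in the injured cord, and the median rise over the mitotic genes exceeded that over the replication genes. Against Sham, 34 of the 38 members rose in C_Spinal, 3 fell and Tyms was not called, at an adjusted p below 0.05 in an edgeR quasi-likelihood fit over all genes. The share of all 14791 tested genes that passed this threshold was 75.4% (38.1% higher and 37.4% lower), so passing it sets the members apart little, and their direction and size are the description. The median log2 fold change was 1.36 over the 38 members and 0.02 over all genes tested. In 27 members the rise was at least 2-fold, against 17.9% of all genes. Levels below are in FPKM, the fragments of a gene divided by its transcript length in kilobases and by the library's depth in M (units of 1e+06), and fold changes come from the scaled counts, so they can differ from a ratio of FPKM. FPKM of C_Spinal and Sham did not overlap in any of the 38 members, 35 of them higher and 3 lower, which also held for 79.5% of all genes (45.6% higher and 33.9% lower). The members' summed FPKM was 260 to 265 in the Sham libraries, 521 to 534 in C_Spinal and 493 to 505 in T_Spinal. Their share of the counts was 0.0552% ± 0.00055 in Sham (SD, n = 3 libraries), 0.116% ± 0.00157 after injury and 0.111% ± 0.00111 with MED. FPKM over all genes of the table summed to 466466 to 474397 in Sham, 542736 to 544855 in C_Spinal and 511417 to 513003 in T_Spinal. The FPKM sums of gene lists given here and below were not scaled to these totals.

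All 38 members passed the expression minimum (FPKM averaged over all 9 libraries not below 1), but 11 of them had a Sham mean below 1 and passed through the injured libraries. Without the minimum, 34 members again rose and 3 fell in C_Spinal against Sham. In T_Spinal against C_Spinal, described further on, 6 members in place of 8 were then called lower, without Cdk2 and Bub1, and in T_Spinal against Sham 2 in place of 3, without Ccne1. Total counts ran from 57.0 to 69.8 M per library, and a member had from 8 to 6016 counts in a Sham library and from 161 to 9928 in an injured one. In bulk tissue, fewer cells of a type and less RNA per cell cannot be told apart.

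**Figure D1:**
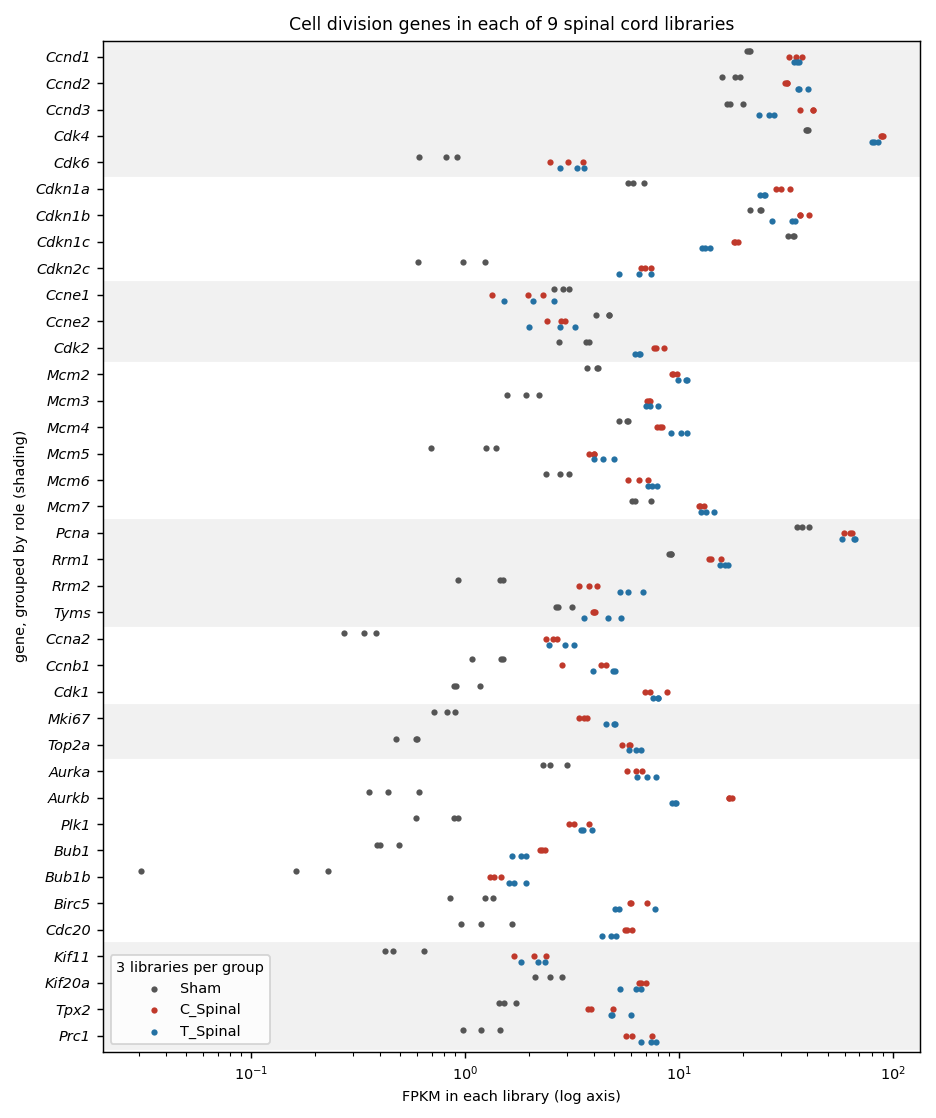
FPKM of the 38 cell division genes in each of the 9 libraries, on a log axis; each point is 1 library, grey Sham, red C_Spinal, blue T_Spinal, and the shading separates roles. Most genes sit to the right of their Sham points in both injured groups, while Cdkn1c, Ccne1 and Ccne2 sit to the left.

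The promoters of the mitotic and the replication members differed in some of the sequence motifs searched. A link between these motifs and the size of the injury change was not tested. RefSeq promoters of the GRCr8 assembly, 300 bases long with 250 before and 50 after the annotated start, matched 28 of the 38 members by symbol. Each stretch below is the 120 bases before the start, 5′ to 3′ on the gene's strand. In the first 4, mitotic genes, capitals mark the cell cycle genes homology region (CHR, searched as TTTGAA or TTTAAA) and the CCAAT box (CCAAT), each on either strand, so that TTCAAA and ATTGG also count. In the last 3, genes of the MCM helicase, capitals mark the CCAAT box and E2F matches (TTCCCGC or TTGGCGC or TTGCCGC or TTCGCGC, either strand). Mki67 and Mcm6 were printed by a rule on their difference between the injured groups, and the other 5 were added after their values were seen.
Mki67, chr1:199952594-199952713, minus strand: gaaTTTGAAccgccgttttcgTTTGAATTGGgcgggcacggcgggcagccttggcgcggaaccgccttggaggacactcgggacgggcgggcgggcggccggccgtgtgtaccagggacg
Cdk1, chr20:19265173-19265292, plus strand: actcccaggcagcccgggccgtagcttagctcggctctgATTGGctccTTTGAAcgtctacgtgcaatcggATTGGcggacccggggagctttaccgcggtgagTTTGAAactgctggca
Top2a, chr10:84473094-84473213, minus strand: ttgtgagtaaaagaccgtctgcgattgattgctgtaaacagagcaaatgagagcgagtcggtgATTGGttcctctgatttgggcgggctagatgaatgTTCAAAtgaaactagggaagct
Cdc20, chr5:137255800-137255919, minus strand: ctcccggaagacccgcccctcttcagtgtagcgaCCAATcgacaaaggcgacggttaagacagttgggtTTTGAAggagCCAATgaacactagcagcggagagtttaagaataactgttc
Mcm6, chr13:42404353-42404472, minus strand: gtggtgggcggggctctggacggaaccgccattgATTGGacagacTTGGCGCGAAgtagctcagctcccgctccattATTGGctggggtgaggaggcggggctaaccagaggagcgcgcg
Mcm5, chr19:13488693-13488812, plus strand: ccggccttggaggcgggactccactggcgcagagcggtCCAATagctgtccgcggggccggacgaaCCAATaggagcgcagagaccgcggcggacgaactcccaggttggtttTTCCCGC
Mcm7, chr12:22163179-22163298, minus strand: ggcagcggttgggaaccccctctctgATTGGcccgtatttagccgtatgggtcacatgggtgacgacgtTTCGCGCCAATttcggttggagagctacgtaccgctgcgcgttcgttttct

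Adjacent matches can share bases, with positions counted from 0 at the first base after the 250: in Mki67 the CHR at -99 to -94 shares its last base with a CCAAT box, and in Mcm7 the E2F matches at -51 to -45 and -48 to -42 overlap each other and a CCAAT box. Mki67 also holds an E2F match at -70 to -64, left in lower case here, as is a match in Mcm6 that crosses the start (-5 to 1). A CHR was found in all 13 mitotic promoters available, 12 of them within the last 100 bases before the start, and in 1 of 8 replication promoters. The share of all 33469 promoters of the same length that hold a CHR was 28.3%, and 9.76% hold it in the last 100 bases. E2F letters were found in 7 of 8 replication promoters and 2 of 13 mitotic promoters, against 9.52% of all promoters. CCAAT boxes were found in 10 of 13 mitotic and 6 of 8 replication promoters, against 37.5% of all. Over promoters whose symbol is in the deposited table, the shares were 21.8% for CHR, 14.0% for E2F and 37.0% for CCAAT. The 12 members with a CHR and no E2F match had a median log2 fold change of 2.0 in C_Spinal against Sham, from -0.72 to 3.24, and the 8 with an E2F match and no CHR had 1.11, from 0.37 to 2.76. The median was 1.57 in the 4 with both and 1.05 in the 4 with neither, so the ranges overlap, and no difference between these sets was tested. A match describes the letters only, and no binding was measured.

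Among the G1 regulators, the cyclins and kinases that start the cycle were all higher after injury, from Sham levels that ran from below 1 FPKM for Cdk6 to about 40 for Cdk4. Ccnd1, the D cyclin induced by growth factors in many cells, stood at 21.4, 21.0 and 21.6 FPKM in Sham, 37.7, 32.8 and 35.2 in C_Spinal, and 36.5, 34.7 and 35.7 in T_Spinal. Every injured library was above every Sham library, and the injured groups overlapped. Ccnd1 rose 1.52-fold in C_Spinal against Sham (95% interval 1.41 to 1.64; edgeR adjusted p = 8.7e-07). Ccnd2, a close relative, rose by 0.71 ± 0.0747 on the log2 scale (SE; adjusted p = 8.4e-06). Ccnd3, the D cyclin common in blood cells, rose by 1.05 ± 0.0876 (adjusted p = 1.3e-06). Cdk4 and Cdk6 are the kinases that D cyclins activate, and they differed greatly in level. Cdk4 went from 39.4 to 40.2 FPKM over the Sham libraries to 88.4 to 90.4 in C_Spinal, 1.05 higher on the log2 scale. Cdk6 went from 0.611 to 0.919 FPKM in Sham to 2.51 to 3.56 after injury, 1.82 higher on the log2 scale. Cdk4 shares its position with Tspan31 on the opposite strand, which was itself 0.69 higher, and the strand setting of the counting is not given, so their reads may not be told apart.

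The CDK inhibitors moved in opposite directions after injury: 3 rose and Cdkn1c fell, where 38.1% of all tested genes were called higher and 37.4% lower. Cdkn1a, which encodes p21, the inhibitor induced by DNA damage, stood at 5.80, 6.88 and 6.09 FPKM in Sham, 30.1, 28.4 and 33.3 in C_Spinal, and 25.2, 24.0 and 25.1 in T_Spinal. No injured library came near the Sham range, and the rise in C_Spinal was 4.49-fold (95% interval 3.96 to 5.09; edgeR adjusted p = 2.3e-09). Cdkn2c, which encodes the Cdk4 and Cdk6 inhibitor p18, went from 0.607, 1.24 and 0.981 FPKM in Sham to 7.40, 6.98 and 6.70 in C_Spinal and 5.27, 6.51 and 7.43 in T_Spinal. The C_Spinal and T_Spinal libraries overlapped, and the rise in C_Spinal was 6.80-fold (4.69 to 9.84; adjusted p = 1.8e-06). Cdkn1b, which encodes p27, a keeper of the resting state, rose by 0.60 ± 0.0909 on the log2 scale. Cdkn1c, the imprinted gene of p57, went the other way: 34.6, 32.3 and 34.1 FPKM in Sham, 18.9, 18.2 and 18.3 in C_Spinal, and 13.3, 12.9 and 14.0 in T_Spinal. The 3 groups did not overlap, and it fell by 0.99 ± 0.0498 in C_Spinal against Sham (edgeR adjusted p = 2.4e-08).

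At the G1/S switch, the cyclins and their kinase also parted. Cyclin E partners with Cdk2 to fire DNA synthesis. Ccne2 stood at 4.75, 4.75 and 4.12 FPKM in Sham, 2.81, 2.93 and 2.42 in C_Spinal, and 2.79, 2.0 and 3.28 in T_Spinal. Both injured groups lay below Sham and overlapped each other, and Ccne2 fell by 0.86 ± 0.168 in C_Spinal (adjusted p = 9.0e-04). Ccne2 overlaps Ints8 on the opposite strand, whose log2 fold change was -0.11 in T_Spinal against Sham and -0.00 in C_Spinal, and their reads may not be told apart. Ccne1 fell by 0.72 ± 0.241 in C_Spinal (adjusted p = 0.019), a call lost without Sham replicate 2 (-0.67) or without C_Spinal replicate 1 (-0.53). Cdk2 rose by 1.11 ± 0.121 (adjusted p = 1.2e-05), from 2.77 to 3.79 FPKM in Sham to 7.70 to 8.54 in C_Spinal.

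Of the 10 replication genes 9 rose, where 38.1% of all tested genes were called higher. Among the MCM subunits the changes were largest for Mcm3 and Mcm5, the least abundant in the intact cord. The 6 MCM proteins form a ring with 1 copy of each that unwinds DNA ahead of the fork. All 6 rose in C_Spinal, with log2 fold changes from 0.42 in Mcm4 to 1.80 in Mcm3. Mcm5 was the lowest in Sham, at 0.693, 1.40 and 1.26 FPKM, and stood at 3.81, 4.0 and 4.02 in C_Spinal and 4.0, 4.41 and 4.99 in T_Spinal. Its injured libraries all lay above Sham, a rise of 3.24-fold (2.30 to 4.55; edgeR adjusted p = 4.4e-05). Mcm7, the highest, rose by 0.82 ± 0.0899. The mean FPKM of the highest subunit was 5.91 times that of the lowest in Sham, 3.23 times in C_Spinal and 3.04 times in T_Spinal, with Mcm7 and Mcm5 at the ends each time, so the subunits lay closer together in the injured groups; this narrowing was not tested. Pcna, the sliding clamp, was the most abundant of the replication members, at 35.8 to 40.6 FPKM in Sham and 59.5 to 64.4 in C_Spinal, and rose by 0.59 ± 0.0661. Ribonucleotide reductase makes the building blocks of DNA. Its large subunit Rrm1 rose by 0.56 ± 0.0556, and its small subunit Rrm2, made mainly in S phase, rose by 1.42 ± 0.208 (adjusted p = 1.2e-04). Tyms, which makes thymidylate, was 0.37 ± 0.158 higher and was not called (edgeR adjusted p = 0.057); its FPKM of 3.97 to 4.06 in C_Spinal lay above 2.67 to 3.16 in Sham. Tyms was called in 7 of 19 alternatives, among them total count scaling (0.49) and the fits without Sham replicate 2 (0.45), T_Spinal replicate 2 or T_Spinal replicate 3 (0.37 in both).

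All 16 mitotic members rose at least 2-fold in C_Spinal, as 17.9% of all tested genes did. Their median log2 fold change was 2.17, against 0.97 over the 10 replication members. The members with a Sham mean below 1 FPKM were unevenly spread between these programs. They were 2 of the 3 genes of Cdk1 and its cyclins, 2 of 2 chromatin markers (Mki67 and Top2a), 4 of 7 mitotic kinase and checkpoint genes and 1 of 4 spindle genes. Among the replication members they were 0 of 6 MCM genes and 0 of 4 clamp and nucleotide genes. The summed FPKM of the 16 mitotic members went from 16.7 to 16.8 in Sham to 82.4 to 87.6 in C_Spinal. Cdk1, the kinase that drives entry into mitosis, stood at 0.887, 0.915 and 1.18 FPKM in Sham, 6.96, 8.81 and 7.35 in C_Spinal, and 8.02, 7.57 and 8.01 in T_Spinal. The injured groups overlapped each other and lay far above Sham, with a rise of 7.11-fold in C_Spinal (5.66 to 8.95; edgeR adjusted p = 3.1e-08). Its cyclin partners differed in size of change: Ccna2 rose by 2.82 ± 0.179 and Ccnb1 by 1.41 ± 0.217. Ccna2 overlaps Exosc9 on the opposite strand, and Kif20a overlaps Cdc23, so for both the reads may not be told apart; Exosc9 and Cdc23 had log2 fold changes of -0.05 and -0.03.

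Mki67 encodes the Ki-67 protein that coats mitotic chromosomes and is the usual stain for cycling cells. Its FPKM was 0.824, 0.721 and 0.903 in Sham, 3.74, 3.62 and 3.42 in C_Spinal, and 5.03, 5.0 and 4.56 in T_Spinal, 3 ranges that did not overlap. It rose 4.05-fold in C_Spinal (3.53 to 4.64; edgeR adjusted p = 7.4e-09). Top2a, the topoisomerase that untangles sister chromosomes, stood at 0.479, 0.600 and 0.593 FPKM in Sham, 5.94, 5.84 and 5.43 in C_Spinal, and 5.85, 6.32 and 6.65 in T_Spinal. Its injured groups overlapped, and the rise in C_Spinal was 9.46-fold (8.12 to 11; adjusted p = 4.7e-10).

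Aurkb had the largest rise of the 38 members. It encodes Aurora B, the kinase that corrects faulty attachments of chromosomes to the spindle, and lies on chromosome 10 at 55626741 to 55634991 in the deposited table, whose genome build is not given in the sources used here. It stood at 0.610, 0.359 and 0.440 FPKM in Sham, 17.1, 17.7 and 17.2 in C_Spinal, and 9.69, 9.63 and 9.27 in T_Spinal. The 3 groups were far apart, with mean FPKM and SD (n = 3 libraries) of 0.469 ± 0.128, 17.3 ± 0.338 and 9.53 ± 0.227. Relative to its mean, the spread was widest in Sham. The rise was 33.7-fold in C_Spinal (26.3 to 43.1; edgeR adjusted p = 6.1e-10), above the 9.46-fold of Top2a and the 8.76-fold of Bub1b. In C_Spinal its mean of 17.3 FPKM stood above that of every other mitotic member, of which the next was Cdk1 at 7.71. No other gene of the table overlapped Aurkb. In C_Spinal replicate 1, Aurkb held 4627 counts at 17.1 FPKM and Cdk1 605 at 6.96, so the Aurkb row covers a longer transcript than that of Cdk1. Whether the Aurkb row holds reads of unannotated sequence was not tested, and its values here and below carry this limit. The nearest genes with counts, Borcs6 and Ctc1, had log2 fold changes of 0.03 and 0.29 in C_Spinal against Sham. Aurora B acts in a complex with Birc5 (survivin), Incenp and Cdca8 (borealin), of which the last 2 were chosen after their values were seen. Birc5 rose by 2.33 ± 0.236, Cdca8 by 1.29 ± 0.142 and Incenp by 0.47 ± 0.056.

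The checkpoint and spindle genes rose between these extremes. Bub1b, the checkpoint kinase-like protein BubR1, was the lowest member in Sham at 0.163, 0.229 and 0.0305 FPKM, and stood at 1.48, 1.31 and 1.36 in C_Spinal. Sham replicate 3 held its fewest counts and the fewest of any member, 8, and its interval was wide (8.76-fold, 4.20 to 18.3). Bub1, its partner in the checkpoint, rose by 2.31 ± 0.131, Plk1, the Polo kinase, by 1.94 ± 0.183, and Aurka, the Aurora kinase of the spindle poles, by 1.13 ± 0.123. Cdc20 activates the ligase that ends mitosis and rose by 2.06 ± 0.18. Of the spindle genes, the cross-linker Prc1 rose by 2.28 ± 0.161 and the motor Kif11 by 1.88 ± 0.197. The motor Kif20a rose by 1.32 ± 0.119 and Tpx2, which activates Aurora A, by 1.30 ± 0.14.

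Against injured rats given water, some G1 regulators and inhibitors were lower in rats given MED. Genes of S phase and mitosis differed in both directions, and the summed FPKM of the mitotic genes overlapped that of C_Spinal. In T_Spinal against C_Spinal, 3 members rose (Mcm4, Rrm2 and Mki67) and 8 fell (Ccnd3, Cdk4, Cdkn1a, Cdkn1b, Cdkn1c, Cdk2, Aurkb and Bub1). The 11 calls are 28.9% of the members, where 38.6% of all tested genes were called (20.7% higher and 17.9% lower); whether these shares differ was not tested. FPKM did not overlap in 15 members, 6 higher and 9 lower, against 52.0% of all genes (30.3% higher and 21.7% lower). The members' median log2 fold change was 0.06, and that of all genes was -0.00. None of the 38 rose 2-fold, as 1.58% of all genes did, and none fell 2-fold, as 1.78% of all genes did. For the 27 members not called, log2 fold changes ran from -0.32 to 0.30, and the 95% interval lay within 2-fold either way in 26 of them; the widest, for Bub1b, ran from -0.64 to 1.25. These intervals bound the differences and do not show that the groups were alike. After a scaling of FPKM to a common sum, an alternative chosen after the data were seen, 75.2% of the called genes were higher against 53.6% here, the median of all genes moved to 0.10, and 10 members rose and 4 fell (limma).

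**Figure D2:**
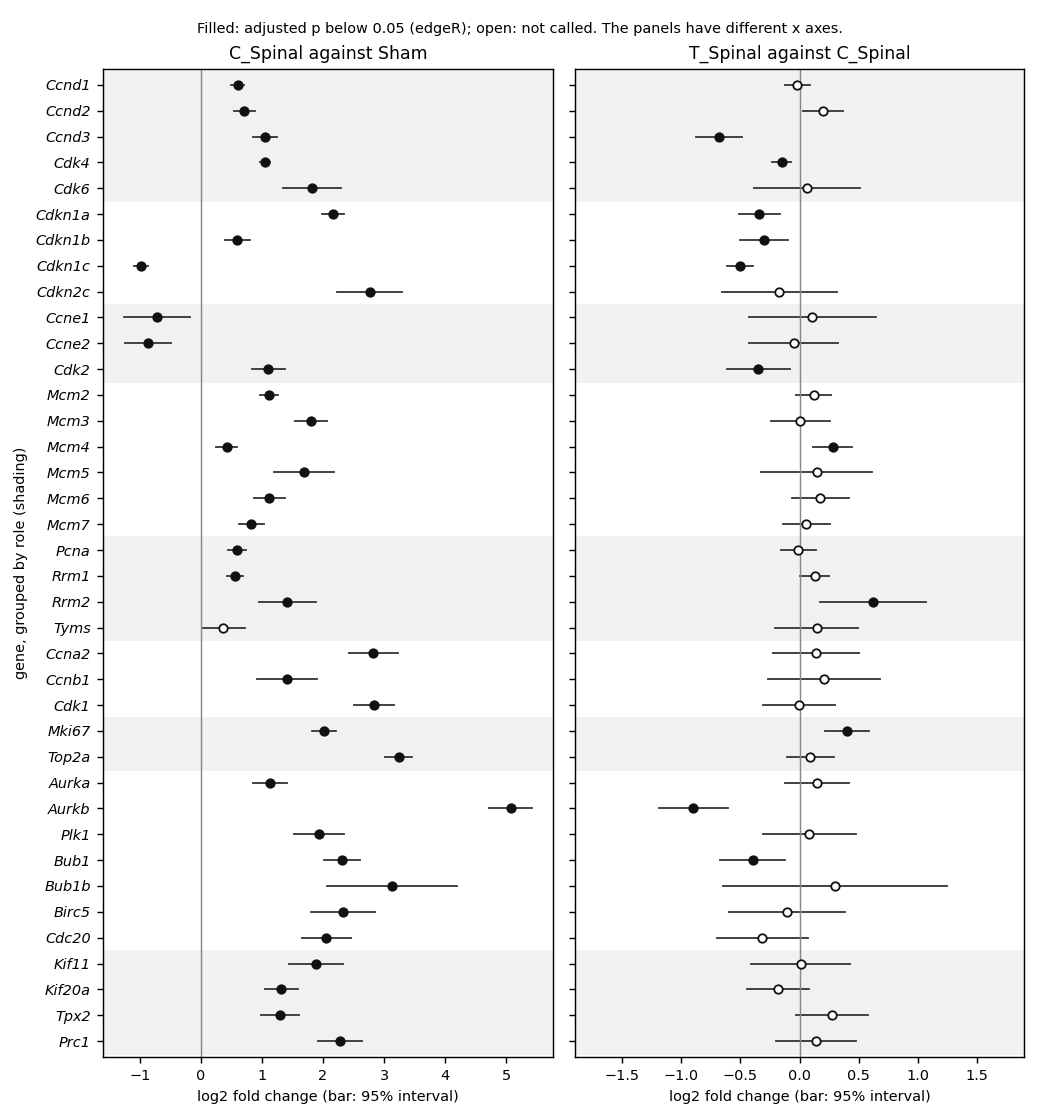
Log2 fold change of each member with its 95% interval, in C_Spinal against Sham (left) and T_Spinal against C_Spinal (right), from edgeR; filled points have an adjusted p below 0.05, and the x axes differ. On the left 35 of 38 points are above 0, led by Aurkb at 5.07, while on the right 27 points are open.

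The brakes on the cycle were called lower with MED at 3 of 4 inhibitors, where 17.9% of all tested genes were called lower. Cdkn1c fell further, by 0.50 ± 0.0498 on the log2 scale (edgeR adjusted p = 3.8e-05), in the direction of its injury change and away from the Sham level. Cdkn1a fell by 0.34 ± 0.0769 (adjusted p = 0.0063), with the T_Spinal libraries at 24.0 to 25.2 FPKM against 28.4 to 33.3 in C_Spinal. That call was lost after the common-sum scaling, where its log2 fold change was -0.21. Cdkn1b stood at 40.8, 37.0 and 37.1 FPKM in C_Spinal and 33.7, 27.2 and 35.0 in T_Spinal, which did not overlap. It fell by 0.30 ± 0.0905 (edgeR adjusted p = 0.026). The call was lost without C_Spinal replicate 1 (-0.25) and without T_Spinal replicate 2, the lowest library (-0.20). It was also lost in limma on log2(FPKM + 1), at -0.26, on log2(FPKM + 0.1), at -0.27, and after the common-sum scaling, at -0.18, so that of the 4 inhibitors only Cdkn1c was called with that scaling. Cdkn2c was 0.17 lower and not called (95% interval -0.66 to 0.32). The summed FPKM of the 4 inhibitors was 62.5 to 65.5 in Sham, 90.6 to 97.3 in C_Spinal and 70.6 to 81.6 in T_Spinal.

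The D cyclins, which share a function, had different values in the treated cord. Ccnd3, on chromosome 9 at 15404822 to 15410943, stood at 17.4, 16.8 and 20.1 FPKM in Sham, 42.7, 37.0 and 42.6 in C_Spinal, and 26.5, 27.9 and 23.8 in T_Spinal. The T_Spinal libraries lay between the other groups without overlap. Ccnd3 fell by 0.68 ± 0.0868 against C_Spinal (edgeR adjusted p = 2.0e-04), and its level remained 1.29-fold above Sham (1.13 to 1.48). Ccnd2 went from 31.9 ± 0.328 FPKM in C_Spinal (SD, n = 3) to 37.5 ± 2.22 in T_Spinal, whose lowest library, at 36.0, lay above the highest of C_Spinal, at 32.1. Its log2 fold change of 0.20 ± 0.074 was not called (edgeR adjusted p = 0.060). It was called in 7 of 19 alternatives, among them DESeq2 (0.22) and the fit without Sham replicate 2 (0.20). Ccnd1 had a log2 fold change of -0.02 (95% interval -0.13 to 0.09). Whether the D cyclins differed from each other in this contrast was not tested. Cdk4 fell by 0.15 ± 0.0353 (adjusted p = 0.0073), and its overlapping neighbour Tspan31 had a log2 fold change of -0.29; the Cdk4 call was lost in limma on log2(FPKM + 0.1) (-0.11) and after the common-sum scaling (-0.03). Cdk2 fell by 0.35 ± 0.119 (edgeR adjusted p = 0.041), a call that was lost in 12 of the 19 alternatives. These were leaving out any of the 6 injured libraries (-0.38 to -0.30), RLE scaling (-0.33), total count scaling (-0.32), no minimum (-0.35), edgeR's filterByExpr (-0.35), limma on log2(FPKM + 0.1) (-0.31) and the common-sum scaling (-0.20).

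Of the genes of S phase and mitosis, Mki67, Rrm2 and Mcm4 rose and Aurkb and Bub1 fell. Mki67, whose promoter is the first shown above, was 1.32-fold higher in T_Spinal than in C_Spinal (1.16 to 1.5; edgeR adjusted p = 0.0041), and the call held in all 19 alternatives tried. Rrm2 stood at 3.82, 3.41 and 4.15 FPKM in C_Spinal and 5.77, 6.83 and 5.32 in T_Spinal, which did not overlap. It rose 1.54-fold (1.12 to 2.10; edgeR adjusted p = 0.035), a call lost without C_Spinal replicate 1, 2 or 3 or T_Spinal replicate 1 or 2 (log2 fold change 0.51 to 0.69 in these 5), and with the replicate number as a block (0.63; adjusted p = 0.057). Mcm4 went from 8.32, 7.95 and 8.14 FPKM in C_Spinal to 10.9, 9.17 and 10.3 in T_Spinal. It rose by 0.28 ± 0.0741 (edgeR adjusted p = 0.014), and was not called without T_Spinal replicate 1 (0.22). The other 5 MCM genes had log2 fold changes of 0.00 to 0.18 and were not called. Without T_Spinal replicate 1, only Mki67 of the 38 members was called higher, and without C_Spinal replicate 1, 5 in place of 8 were called lower. Without C_Spinal replicate 2, Rrm1 (0.18) and Tpx2 (0.41) were also called higher.

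Aurkb fell by 0.90 ± 0.13 on the log2 scale against C_Spinal (edgeR adjusted p = 4.7e-04), the largest decrease among the members, and remained 18.1-fold above Sham (14.2 to 23.0). None of its partners was called lower. Incenp went from 6.21, 6.69 and 6.57 FPKM in C_Spinal to 8.40, 8.59 and 8.41 in T_Spinal and rose by 0.35 ± 0.0556 (adjusted p = 8.6e-04), while Birc5 was at -0.11 (95% interval -0.60 to 0.39) and Cdca8 at 0.23 (-0.08 to 0.54), neither of them called. Bub1 went from 2.26, 2.31 and 2.37 FPKM to 1.66, 1.92 and 1.83, which did not overlap. It fell by 0.40 ± 0.123 (edgeR adjusted p = 0.028), a call lost without C_Spinal replicate 1, 2 or 3 or T_Spinal replicate 1 or 3 (-0.41 to -0.34), and without the expression minimum (-0.39; adjusted p = 0.053). Cdk1, Top2a, Plk1 and Kif11 had log2 fold changes of -0.01, 0.09, 0.08 and 0.01. The summed FPKM of the 16 mitotic members was 80.6 to 84.1 in T_Spinal and overlapped C_Spinal. Without Aurkb it was 65.2 to 70.5 in C_Spinal and 70.9 to 74.5 in T_Spinal, so the sign of the difference in the unscaled sum turns on Aurkb. FPKM over all genes summed to 542736 to 544855 in C_Spinal and 511417 to 513003 in T_Spinal, so the sign also depends on the scaling.

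**Figure D3:**
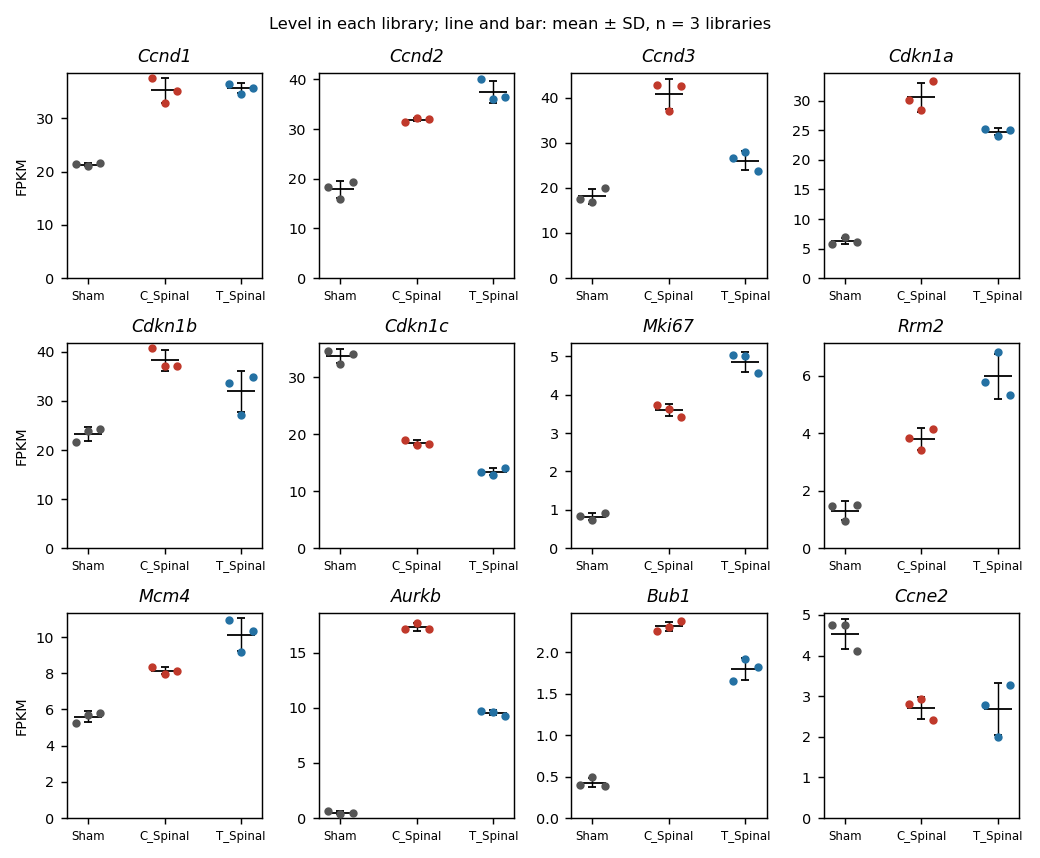
FPKM of 12 members in each library, with the mean and SD of 3 libraries per group, on axes from 0. Ccnd3, Cdkn1a, Aurkb and Bub1 lie between Sham and C_Spinal in T_Spinal, whereas Mki67, Rrm2, Mcm4 and Cdkn1c lie farther from Sham than C_Spinal does.

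Against Sham, most cell division genes were higher in the treated cord too. In T_Spinal 35 members rose and Cdkn1c, Ccne1 and Ccne2 fell, where 71.5% of all genes were called (35.0% higher, 14.8% at least 2-fold, and 36.6% lower). The members' median log2 fold change was 1.59, against -0.02 over all genes. FPKM did not overlap between T_Spinal and Sham in 37 members, 35 higher and 2 lower, against 75.7% of all genes (45.0% higher and 30.7% lower). This contrast shares its libraries with both others, so its values are given as description. Aurkb led with 4.17, followed by Bub1b at 3.43 and Top2a at 3.33. Mki67 was 5.34-fold and Cdk1 7.08-fold above Sham. Tyms rose by 0.51 ± 0.158 (edgeR adjusted p = 0.015), and this call was lost without T_Spinal replicate 2 (0.37). Cdkn1b rose by 0.30 ± 0.0908 (adjusted p = 0.013), and was not called without Sham replicate 1 (0.25) or T_Spinal replicate 3 (0.23). Ccne1 fell by 0.62 ± 0.24 (edgeR adjusted p = 0.040) although its libraries, at 1.52, 2.08 and 2.63 FPKM, overlapped the Sham range of 2.61 to 3.06. That call was lost in 10 of the 19 alternatives, among them leaving out any Sham library (-0.68 to -0.57), C_Spinal replicate 2 (-0.62), T_Spinal replicate 1 (-0.44) or T_Spinal replicate 2 (-0.62).

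In lists of other genes of the pathway, the median change after injury was also higher for mitosis than for replication, and this difference was not tested. Of all genes tested, 75.4% were called after injury, 38.1% higher and 37.4% lower. Of 35 further mitosis and cytokinesis genes tested, 29 rose and 4 fell in C_Spinal against Sham, with a median log2 fold change of 1.29. In 16 of these 35 the Sham mean was below 1 FPKM, Kif2c, Pkmyt1 and Ube2c among them, so they passed the minimum through the injured libraries, as did Uhrf1 and 1 other of the fork genes. Without the minimum, 35 of 41 mitosis genes rose and 4 fell (median 1.59), and 17 of 28 fork genes rose and 4 fell (median 0.43). Kif2c, a kinesin that depolymerizes microtubules, rose by 3.50, the Cdk1-inhibiting kinase Pkmyt1 by 3.23 and Ube2c, an enzyme of mitotic exit, by 3.11. Of 25 further licensing and fork genes, 15 rose and 4 fell, with a median of 0.41. Uhrf1, which maintains DNA methylation at forks, rose by 1.54, the thymidine kinase Tk1 by 1.45 and Gins1, part of the active helicase, by 1.19. Of 17 retinoblastoma, E2F and MuvB regulators, 7 rose and 7 fell. Foxm1, the activator of mitotic genes, rose by 1.48 and Rbl1 (p107) by 1.38, while Lin52, a MuvB subunit, fell by 1.09. Of 9 further CDK inhibitors and DNA damage genes, 7 rose and 2 fell. Gadd45a, a stress gene, rose by 2.65, while Zmat3 fell by 1.69 and Btg2, an antiproliferative gene, by 1.35. Of 13 other cyclins and kinases, most with roles outside the cycle, 2 rose and 6 fell. Cdk18, Cdk14 and Cdk16 fell by 1.69, 1.31 and 0.94. The share called was 94.3% of the mitosis list, 82.4% of the regulators and 100% of the inhibitor list. It was 76% of the fork list, near the share of all genes, and 61.5% of the other cyclins and kinases, below it.

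Not every gene with a name from cytokinesis rose. Anln, which encodes the actin-binding protein anillin and is also expressed by myelinating oligodendrocytes, stood at 60.4, 59.0 and 57.3 FPKM in Sham, 15.0, 16.5 and 15.5 in C_Spinal, and 27.2, 31.7 and 29.9 in T_Spinal. The 3 groups did not overlap, and Anln fell by 2.03 ± 0.0595 after injury and rose by 0.88 ± 0.058 with MED (edgeR adjusted p = 3.6e-10 and 2.7e-06). Cit, the citron kinase, which neurons also express, fell by 2.27 ± 0.0883 and rose by 0.53 ± 0.0855. Both were chosen after their values were seen. In the same libraries 37.4% of all genes were called lower after injury and 20.7% higher with MED. All 8 markers of mature oligodendrocytes and all 10 of neurons fell after injury and rose with MED. Their summed FPKM was 27025 to 27226, 8022 to 8100 and 9816 to 9981 for oligodendrocytes in Sham, C_Spinal and T_Spinal, and 1951 to 2048, 153 to 157 and 230.1 to 235 for neurons. The part of these cells in the values of Anln and Cit was not tested.

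**Figure D4:**
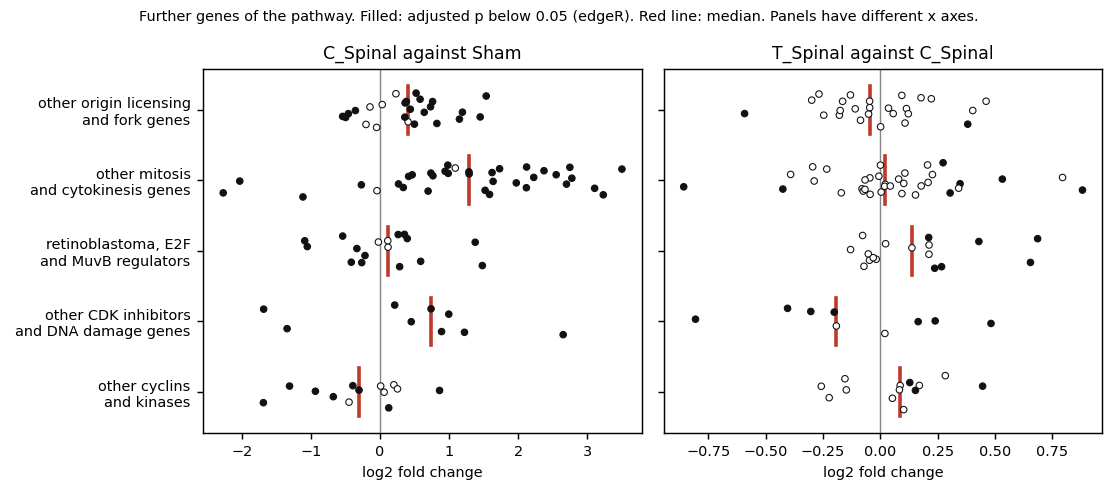
Log2 fold changes of the further genes of the pathway in 5 lists, in C_Spinal against Sham (left) and T_Spinal against C_Spinal (right); filled points have an edgeR adjusted p below 0.05, red lines are list medians, and the x axes differ. On the left the mitosis list is centred at 1.29, and its 2 lowest points are Cit and Anln.

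In T_Spinal against C_Spinal, 5 of the 35 mitosis genes rose and 2 fell, and 1 of the 25 fork genes rose (Fen1, 0.38) and 1 fell (Cdc45, -0.59). In Sham replicate 1, Cdc45 held 5588 counts at 12.0 FPKM and the fork gene Prim1 1314 at 11.3, so the Cdc45 row covers a longer transcript. Whether that row takes up reads of a neighbouring gene was not tested. Pkmyt1 fell by 0.86 ± 0.214 (edgeR adjusted p = 0.010). Of the 17 retinoblastoma, E2F and MuvB regulators 6 rose, among them Rbl1 by 0.27, and 0 fell; without the minimum 3 of 20 rose. Of the 9 inhibitors and DNA damage genes 3 rose and 4 fell, with Gadd45a falling by 0.30. The share called was 20% of the mitosis list, 8% of the fork list, 35.3% of the regulators and 77.8% of the inhibitor list. Over all genes it was 38.6%, with 20.7% higher and 17.9% lower. In the deposited KEGG assignment, 61 of 114 tested cell cycle genes rose and 28 fell in C_Spinal against Sham. In T_Spinal against C_Spinal 17 rose and 23 fell. The calls were 78.1% and 35.1% of this KEGG set, near the 75.4% and 38.6% of all genes, so they set it apart little. The further lists share no gene with the members, while the KEGG set holds some of them.

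Markers of several cell types that can divide rose after injury, while those of others were mixed or mostly fell. With MED the lists moved in different directions, and the part of these cells in the values above was not tested. The marker counts stand beside 75.4% of all genes called after injury, 38.1% higher and 37.4% lower. With MED 38.6% of all genes were called, 20.7% higher and 17.9% lower. Of 10 microglia and macrophage markers, 9 rose and 1 fell after injury, and their summed FPKM went from 207 to 214 in Sham to 3729 to 3767 in C_Spinal and 3651 to 3688 in T_Spinal. With MED 7 of them rose and 1 fell; Csf1r, a growth factor receptor of these cells, had mean FPKM of 41.2, 105 and 236 in the 3 groups. Fibroblast and pericyte markers rose in 6 of 7 after injury and fell in 6 of 7 with MED, with sums of 137 to 139, 1277 to 1307 and 633 to 643. Schwann cell markers rose in 7 of 8 and fell in 7 of 8 with MED, with sums of 919 to 953, 1474 to 1490 and 543 to 549. For lymphocytes only 2 of 9 markers passed the minimum, and both rose after injury. Cd3d, Cd3g, Cd79b and Ms4a1 had no counts in Sham, and the sums over all 9 were 7.37 to 8.70, 80.4 to 86.3 and 136 to 139. For neutrophils 3 of 8 passed, and all 3 rose after injury; S100a8, Elane and Ltf had no counts in Sham, Elane none in any group and Ltf none in T_Spinal. Their sums were 1.89 to 2.40, 24.9 to 26.0 and 14.3 to 15.2. Oligodendrocyte precursor markers rose in 2 and fell in 5 of 8 after injury (sums 285 to 305, 241 to 247 and 269 to 282), and astrocyte markers rose in 2 and fell in 3 of 8 (4308 to 4555, 5508 to 5601 and 5762 to 6039). Ependymal markers rose in 2 and fell in 1 of 5 tested (16.9 to 18.6, 20.1 to 22.8 and 16.5 to 18.6). Endothelial markers rose in 4 and fell in 1 of 6 (47.4 to 49.2, 104 to 109 and 73.7 to 74.9), and Cldn5 had no counts in any library.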

How the data were processed

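Poly(A) RNA of 9 rat spinal cord libraries, 3 per group, was sequenced as stranded paired-end libraries, per the labels' protocols. The authors deposited a single table of raw counts and FPKM per gene, in which a gene without counts has a small fixed FPKM. HISAT and StringTie were used for mapping and quantification, per the submitters' processing notes; versions, build, annotation and strand setting: not given in the sources used here. Total counts were 57.0 to 69.8 M per library.

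Genes with a mean deposited FPKM of at least 1 were tested (14791 genes). The counts were scaled by TMM and fitted with edgeR 4.0.16 (R 4.3.3) quasi-likelihood models over all 9 libraries, without covariate, with Benjamini-Hochberg adjustment over all genes and a threshold of 0.05. Intervals are 95%. The scripts were tested on simulated data. No libraries agreed within sampling noise. Same-numbered libraries did not deviate together (correlations from -0.079 to 0.092 over 9 pairs), so the numbers were not taken to pair libraries. No library was left out, and the labels name no batch.

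The members, their roles, the further lists, the markers and the motifs were chosen with earlier results of these data known. All members are named; of each further list, up to 3 called genes with the largest change after injury and a mean FPKM of at least 1. Other genes named were chosen after their values were seen. Of the promoters printed, Mki67 and Mcm6 are, with a promoter given, the mitotic gene holding a CHR and the replication gene holding an E2F match that had the largest absolute log2 fold change between the injured groups. Alternatives were other scalings, other minimums, DESeq2 1.42.0, limma 3.58.1 on log2(FPKM + 1) and log2(FPKM + 0.1), only the groups compared, a replicate block and leaving out each library. FPKM rescaled to a common sum was added after the data were seen. Figures were drawn with matplotlib 3.10.9 in Python 3.11.15. 1 gene of these lists is not reported here and was left out of its list's counts.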

Additional observations from a re-analysis of the deposited data

How the results depend on the processing

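Against Sham no member changed direction in either injured group under any of the 19 alternatives. In T_Spinal against C_Spinal, sign changes were limited to members that were not called. Ccnd1, Pcna and Cdk1 had log2 fold changes of 0.0029, 0.012 and 0.018 with RLE scaling, 0.012, 0.021 and 0.026 with total count scaling, 0.0029, 0.013 and 0.018 in DESeq2, 0.017, 0.023 and 0.032 in limma on log2(FPKM + 1), and 0.018, 0.023 and 0.036 in limma on log2(FPKM + 0.1). After the common-sum scaling they were 0.10, 0.11 and 0.11, and Ccne2 was 0.039. Leaving out 1 library at a time gave -0.070 to 0.028 for Ccnd1, -0.057 to 0.19 for Cdk6, -0.094 to 0.29 for Ccne1, -0.21 to 0.12 for Ccne2 and -0.050 to 0.044 for Mcm3. It gave -0.0055 to 0.11 for Mcm7, -0.046 to 0.046 for Pcna, -0.075 to 0.099 for Cdk1, -0.11 to 0.13 for Kif11 and -0.33 to 0.0085 for Birc5.

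Members called higher in T_Spinal against C_Spinal numbered 3, but 5 with total count scaling, 5 in DESeq2, 10 after the common-sum scaling and 1 to 4 without 1 library. Members called lower numbered 8, but 9 with only the groups compared. They numbered 5 in limma on log2(FPKM + 0.1), 4 after the common-sum scaling and 5 to 8 without 1 library. The cause was not tested. Ccnd3, Cdkn1c, Mki67 and Aurkb kept their calls in this contrast in all 19 alternatives. Total count scaling moved the median log2 fold change of all genes in C_Spinal against Sham from 0.02 to 0.14, and the share of higher calls from 50.5% to 57.7%. In T_Spinal against Sham it moved that share from 48.9% to 59.6%.

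With the replicate number as a block, 34 members rose and 3 fell in C_Spinal against Sham, 2 rose and 8 fell in T_Spinal against C_Spinal, with the call of Rrm2 lost, and 35 rose and 3 fell in T_Spinal against Sham. Over all genes the block gave 10966, 5235 and 10376 calls, against 11158, 5707 and 10580. Counts as low as 8 limit Bub1b in Sham, and 3 libraries per group limit all small differences.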
